A study of Mus musculus with 37 samples.

Results

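Hox genes encode homeodomain transcription factors that fix position along the body axis of the embryo, and most adult tissues keep part of that pattern. They were taken as every gene symbol made of Hox, a cluster letter from a to d and a paralog number, which gave 39 of the 24421 gene symbols in the count table. WTS (whole transcriptome sequencing) was done on RNA of ureter and bladder of female wild-type (WT) BALB/c mice, in 37 libraries. For 18 weeks the mice received the nitrosamine N-butyl-N-(4-hydroxybutyl)nitrosamine (BBN), a urothelial carcinogen, in drinking water, or no BBN. Ureter of mice without BBN gave 6 libraries (U), the right and left ureters of 3 mice, and their bladders gave 3 libraries (B). Mice with BBN gave 11 libraries of the cancer side of the upper urinary tract (UT, from 10 mice, with both sides of mouse 5), 7 libraries of the noncancer side (UN) and 10 bladder libraries (BB). A library is named by its group and mouse number, with R or L for the side where a mouse gave both. BBN is the only agent that separates the groups of one tissue, and mice with the same number but different treatment are different mice. The 6 U libraries come from 3 mice, and tests that take them as independent can give p-values that are too small.

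In mammals the Hox genes lie in 4 clusters, and genes with the same paralog number in different clusters descend from a common ancestor. Genes are transcribed in order along a cluster: low paralog numbers reach toward the head and high numbers are restricted to the tail end, where the bladder and the lower urinary tract form. The ureter arises from the mesonephric duct and its surrounding mesenchyme, and Hoxa10, Hoxa11 and the paralogs 13 are known for their roles in the genital and urinary tract. On GRCm38 the Hoxa cluster (11 genes) lies on chromosome 6, and the Hoxb cluster (10 genes) spans chr11:96194316-96368256, the Hoxc cluster (9 genes) chr15:102921103-103036852 and the Hoxd cluster (9 genes) chr2:74668310-74765142.

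Hoxa10 and Hoxc10 are paralogs whose difference between ureter and bladder had opposite signs, and the homeobox that encodes the DNA-binding homeodomain shows how alike they are. Both homeoboxes lie in exon 2, that of Hoxa10 on the minus strand at chr6:52232554-52232733 and that of Hoxc10 on the plus strand at chr15:102970848-102971027 (GENCODE vM21, GRCm38). They are given 5′ to 3′, with capitals for the 35 of 180 bases at which the pair differ, an identity of 80.6%.
Hoxa10: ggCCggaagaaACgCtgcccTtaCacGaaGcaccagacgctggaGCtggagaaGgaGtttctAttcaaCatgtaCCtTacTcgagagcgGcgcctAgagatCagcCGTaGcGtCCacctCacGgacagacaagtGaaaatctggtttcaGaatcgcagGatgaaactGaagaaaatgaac
Hoxc10: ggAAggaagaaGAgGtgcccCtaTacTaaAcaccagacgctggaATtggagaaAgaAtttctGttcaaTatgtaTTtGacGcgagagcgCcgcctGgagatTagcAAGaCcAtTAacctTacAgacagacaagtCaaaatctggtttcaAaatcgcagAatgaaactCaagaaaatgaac
The longest run of bases that the 2 transcripts share is 17. Over the 42 pairs of members with the same paralog number the homeobox identity was 67.2% to 93.9% (median 80.6%), and the longest shared run of transcript sequence reached 50 bases, in Hoxb9 and Hoxc9. Over the other 699 pairs the median identity was 60.6%, with a highest of 88.9% and a shared run of up to 52 bases. The reads sequenced were longer than any of these runs. How reads matching more than 1 gene were counted is not given in the sources used here.

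Library totals ranged from 3557697 counts in BB 3 to 18793560 in the deepest U library. Counts are given as CPM (counts of a gene scaled to the library total). From 29 to 38 of the 39 members had a count in each library. The summed Hox level was 155 to 180 CPM in U, 112 to 207 in UN, 129 to 292 in UT, 276 to 287 in B and 125 to 254 in BB. Bladder and ureter libraries differed in their markers: the urothelial sum (9 genes) was 1425 to 2787 CPM in U and 18731 to 19568 in B, the smooth muscle sum (7 genes) was 1816 to 3370 in U and 9258 to 11119 in B, and the adipocyte sum (5 genes) was 16484 to 24133 in U and 395 to 1126 in B. In bulk RNA, fewer cells of a type cannot be told apart from less RNA per cell.

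The heat map shows the level of the members in each library.

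**Figure D1:**
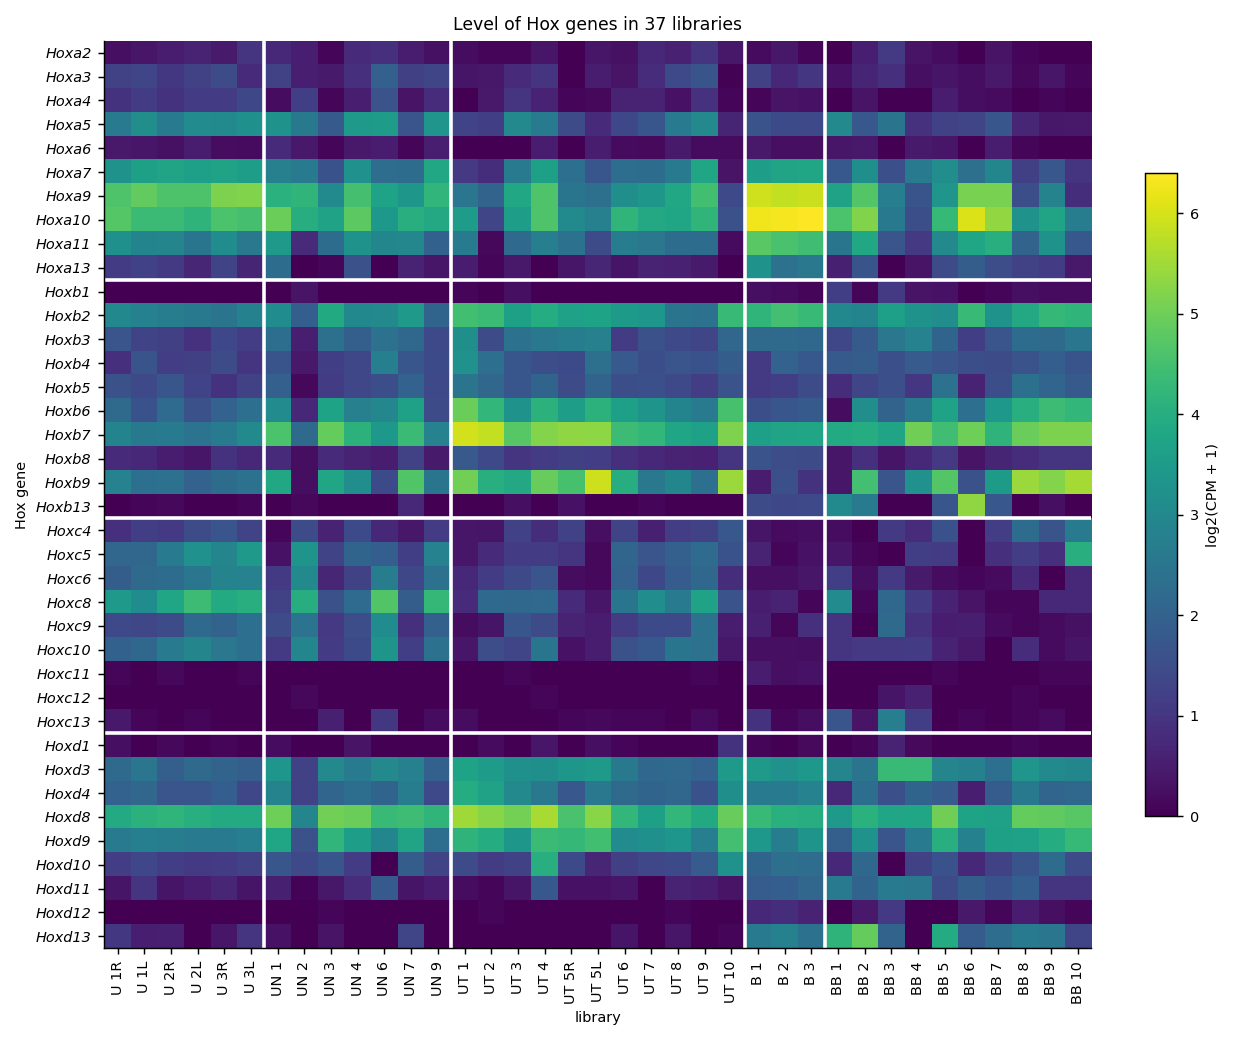
Level of the Hox genes (rows, by cluster and paralog number) in each of the 37 libraries (columns, by group), as log2(CPM + 1). White lines separate groups and clusters. Hoxc4 to Hoxc10 were low in all B libraries and higher in all U libraries.

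The first comparison asked which Hox genes separate untreated ureter from untreated bladder. The Hoxc genes from Hoxc4 to Hoxc10 were higher in U, and the tested genes from number 10 on in the Hoxa, Hoxb and Hoxd clusters were higher in B, with Hoxb2, Hoxb8 and Hoxd3. Of 39 members, 30 passed the filter on low counts, and 9 were higher in U and 10 lower (edgeR's quasi-likelihood test, FDR under 0.1 and FC of at least 2). Fold changes were estimated after TMM scaling of the libraries. Over all 15318 genes tested, 15.7% were higher and 14.3% lower. The median log2 fold change was -0.24 for the members and -0.02 for all genes. The calls were the same 19 genes with DESeq2 and with limma-trend. With the right and left ureter of each mouse summed, 9 were higher and 11 lower, the same 19 and Hoxd12. A single fit of all 37 libraries called 5 higher and 5 lower.

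Of the clusters, Hoxc had the largest median log2 fold change in size, 4.69 over its 6 tested genes. These 6 had at most 0.842 CPM in any B library and passed the filter on low counts through U. The median thus covers only Hoxc genes with enough counts in U. Hoxc8, known for its role in the thoracic skeleton, had 7.58 to 19.9 CPM (median 13.4) in the 6 U libraries and 0.418, 0.533 and 0.0602 CPM in the 3 B libraries. All U libraries lay above all B libraries, and the log2 fold change was 5.69 (SE 0.51, adjusted p = 1.3e-06 from edgeR). The other 5 Hoxc genes called were Hoxc4, Hoxc5, Hoxc6, Hoxc9 and Hoxc10, with log2 fold changes from 2.84 (Hoxc9) to 4.84 (Hoxc10). Hoxc10, known for the patterning of the lumbar level, had 2.99 to 6.51 CPM (median 4.41) in U and 0.209, 0.200 and 0.181 CPM in B. These were all the Hoxc genes tested. Hoxc11, next to Hoxc10, was too low to be tested and lay the other way, with 0 to 0.106 CPM (median 0.0325) in U and 0.418, 0.200 and 0.241 CPM in B. Hoxc5 and Hoxc10 overlap each other on the same strand in the annotation, so their counts may be split between them and are uncertain. Fractional counts were found in 0 libraries for Hoxc5 and in 1 for Hoxc10. Adipocyte markers were higher in U for 5 of 5 genes, erythroid for 3 of 3 and endothelial for 2 of 3. Urothelial markers were lower for 9 of 9 and smooth muscle markers for 5 of 7. The skeletal muscle sum was 14.6 to 20.1 CPM in U and 217 to 259 in B. The female reproductive tract sum was 6.63 to 15.6 CPM in U and 76.5 to 81.3 in B. The part of these markers in the Hox results of U against B, Hoxc included, was not tested.

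**Figure D2:**
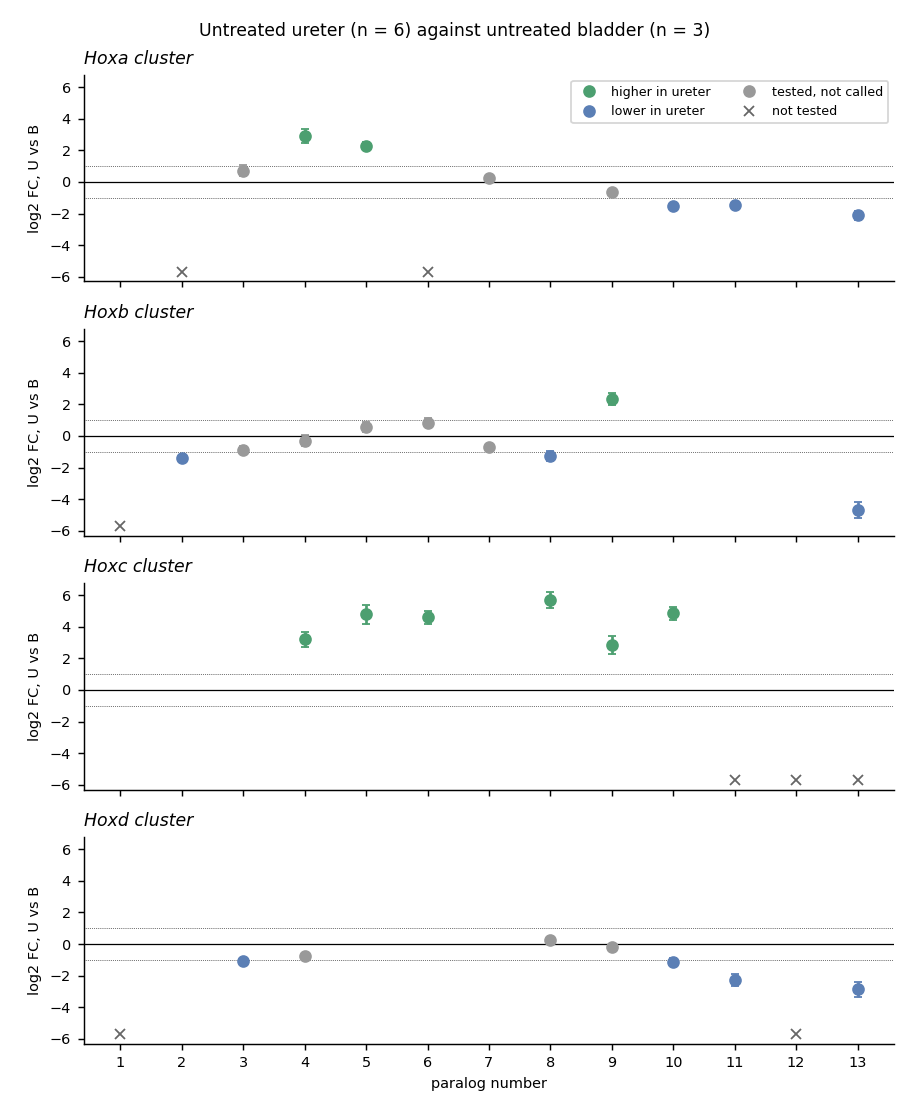
Log2 fold change of U against B (vertical axis) by paralog number (horizontal axis), in 1 panel for each cluster. Points are edgeR estimates with SE, dotted lines mark a 2-fold change and crosses mark members that were not tested. All 6 tested Hoxc genes, which passed the filter through U, lie above the upper line. Hoxa10, Hoxa11, Hoxa13, Hoxb13, Hoxd10, Hoxd11 and Hoxd13 lie below the lower one.

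The paralogs 13 are the last genes of each cluster, and Hoxa13 and Hoxd13 pattern the digits and the genital and urinary outlet. Hoxa13 had 0.586 to 1.46 CPM (median 1.15) in U and 8.85, 4.20 and 4.93 CPM in B, a log2 fold change of -2.12 (SE 0.31, adjusted p = 9.1e-05 from edgeR). Hoxd13 had 0 to 1.04 CPM (median 0.463) in U and 5.23, 6.06 and 4.33 CPM in B, a log2 fold change of -2.87 (SE 0.50, adjusted p = 0.00034 from edgeR). The ranges of U and B did not overlap for either gene. Hoxb13, known from the prostate and the tail, had 0 to 0.106 CPM (median 0.0319) in U and 1.74, 1.60 and 1.68 CPM in B, a log2 fold change of -4.70 (SE 0.52, adjusted p = 9.2e-06 from edgeR). Hoxc13, a gene of hair and nail, was not tested. It had 0 to 0.348 CPM (median 0.031) in U and 0.906, 0.0666 and 0.181 CPM in B, and these ranges overlapped.

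The 250 bases before the start of Hoxd13 are shown because Hoxd13 was called lower in ureter than in bladder both without and with BBN. They lie at chr2:74667975-74668224 on the plus strand (RefSeq, GRCm38.p6), with the only TATAAA of the gene strand in capitals, which starts 124 bases before the gene.
Hoxd13: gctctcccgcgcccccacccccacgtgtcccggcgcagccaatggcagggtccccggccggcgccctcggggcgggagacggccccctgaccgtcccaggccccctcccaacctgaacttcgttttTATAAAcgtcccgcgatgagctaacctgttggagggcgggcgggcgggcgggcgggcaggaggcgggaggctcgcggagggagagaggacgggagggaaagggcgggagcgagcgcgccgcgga
The sequence held 31 CG pairs and was 74.4% GC, against medians of 12.5 pairs and 58.6% over 24 promoters of 22 Hox genes and of 6 pairs and 52.4% over 32851 promoters. TATAAA was found in 1 of the 24 Hox promoters (4.17%) and in 7.59% of all. The Pbx-Hox motif TGATNNAT, searched on both strands, was found in 4 of 24 (16.7%, Hoxa2, Hoxb1, Hoxb8 and Hoxd11) and in 7.68% of all, and CAATAAA on both strands in 1 of 24 (Hoxb8) and in 4.20% of all. A match of letters is a description and not a binding site.

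In the Hoxa cluster the change of direction fell within the cluster. Hoxa4 had 0.904 to 1.63 CPM (median 1.15) in U and 0.0697, 0.266 and 0.241 CPM in B, a log2 fold change of 2.89 (SE 0.45, adjusted p = 0.00016 from edgeR). Hoxa5, which patterns the lung and trachea, was also higher in U (log2 fold change 2.30). Hoxa10, which patterns the uterus, had 17.0 to 25.3 CPM (median 20.8) in U and 75.4, 79.1 and 83.6 CPM in B, a log2 fold change of -1.53 (SE 0.12, adjusted p = 4.4e-07 from edgeR), and Hoxa11 had one of -1.49. Hoxa11 shares its locus with the antisense RNA Hoxa11os, whose reads cannot be told apart without strand. Hoxa9 missed the 2-fold threshold (-0.66, adjusted p = 0.0046 from edgeR), and Hoxa3 and Hoxa7 were not called, with log2 fold changes of 0.70 and 0.26. Hoxa3 overlaps Gm28308 and antisense genes, and its counts were fractional in 24 libraries and are uncertain.

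In the Hoxb and Hoxd clusters 1 gene was higher in U and 7 were lower. Hoxb9 had 3.04 to 6.12 CPM (median 4.14) in U and 0.418, 1.93 and 0.903 CPM in B, a log2 fold change of 2.34 (SE 0.38, adjusted p = 0.00023 from edgeR). Besides Hoxb13 and Hoxd13, the lower genes were Hoxb2 (log2 fold change -1.37), Hoxb8 (-1.28), Hoxd3 (-1.04), Hoxd10 (-1.13) and Hoxd11 (-2.28). The counts of Hoxd11 were fractional in 36 libraries, where it overlaps the gene Gm28309, and are uncertain. Hoxd3 and Hoxd4 overlap each other on the same strand, and their counts, fractional in 14 and 12 libraries, are uncertain too. Hoxb3, Hoxb4, Hoxb5, Hoxb6, Hoxb7, Hoxd4, Hoxd8 and Hoxd9 were tested and not called, with log2 fold changes from -0.91 (Hoxb3) to 0.84 (Hoxb6).

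By paralog number, 2 of the 8 tested members with numbers 1 to 4 were higher in U and 2 lower, against 4 and 1 of 10 for numbers 5 to 8 and 3 and 7 of 12 for numbers 9 to 13. On the scale of CPM per kb of exon, which allows levels to be compared between genes, the paralogs 9 to 13 held 36.5% to 44.6% of the Hox total in U and 61.8%, 62.8% and 64.4% in B. The ranges did not overlap, and this share was not tested. On the same scale Hoxa10 had the highest mean level in both tissues, 6.44 ± 0.906 (SD, n = 6) in U and 24.3 ± 1.26 (SD, n = 3) in B. In U it was followed by Hoxd8 (5.51 ± 0.492), Hoxa9 (5.03 ± 1.001) and Hoxc8 (4.69 ± 1.54), neighbours whose differences lay within their SD. In B the next genes were Hoxa9 (10.4 ± 0.506) and Hoxa11 (10.2 ± 1.24), also within their SD of each other.

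Among the members not tested in this comparison were Hoxa2, Hoxa6, Hoxb1, Hoxc11, Hoxc12, Hoxc13, Hoxd1 and Hoxd12, none of these above 0.976 CPM in a U or B library. Hoxd12 had 0 counts in all 6 U libraries and 0.627, 0.799 and 0.542 CPM in B, which was at least 20.4-fold higher in B against the floor of 3 counts over the group. Floors and counts carry counting error only.

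**Figure D3:**
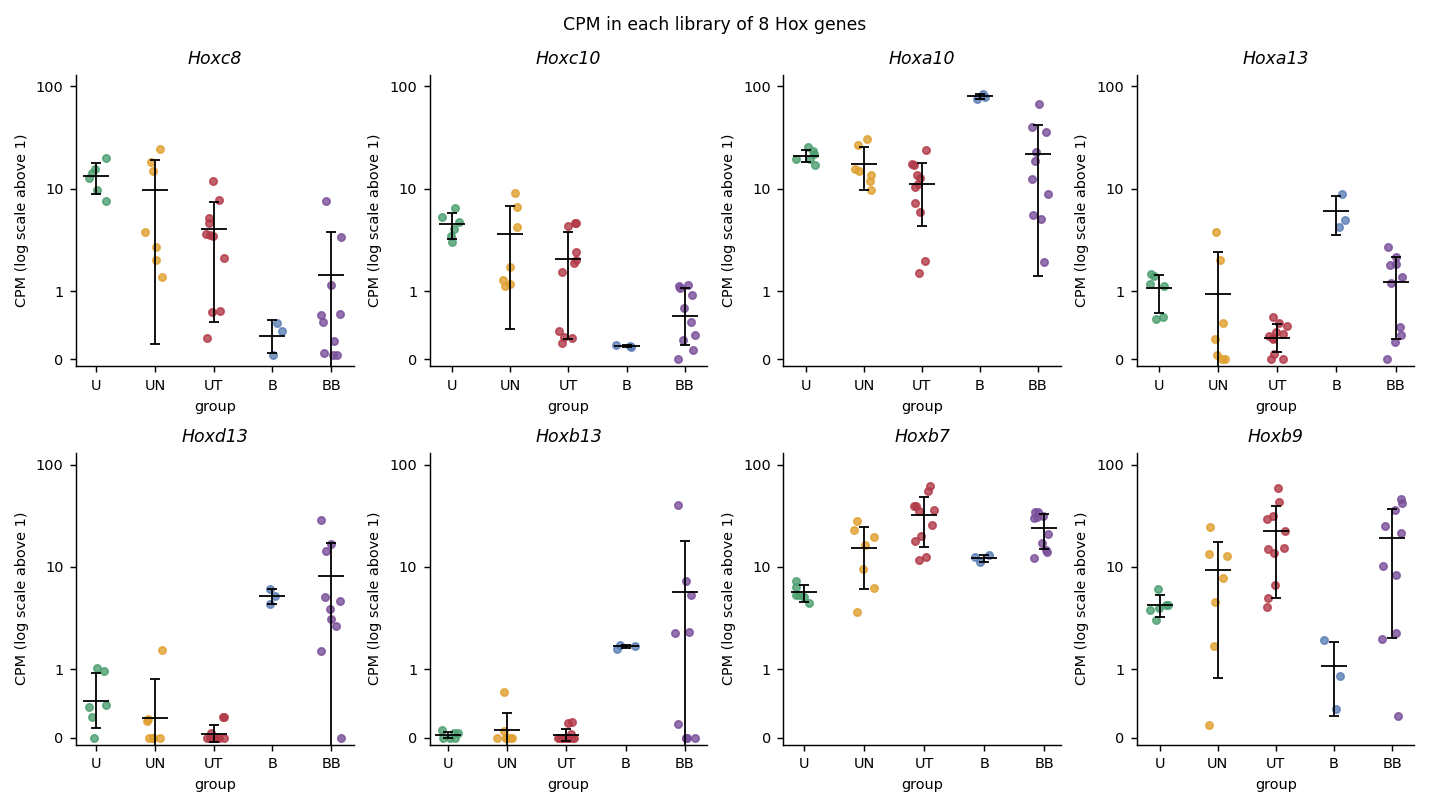
CPM of 8 Hox genes in each library (dots, log scale above 1 CPM) by group, with mean ± SD as bars. Hoxc8 and Hoxc10 were higher in U than in B in every library, Hoxa10, Hoxa13, Hoxd13 and Hoxb13 lower, and Hoxb7 and Hoxb9 spread widely in UN, UT and BB.

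The tissue contrast was also made in mice with BBN. In UN against BB, 28 members were tested, and 4 were higher in UN (Hoxa3, Hoxc6, Hoxc8 and Hoxc10) and 2 lower (Hoxd11 and Hoxd13), against 8.29% higher and 7.44% lower over 16006 genes. Hoxd13 had 0 to 1.55 CPM (median 0) in UN and 0 to 28.9 CPM (median 4.30) in BB, a log2 fold change of -4.87 (SE 1.06, adjusted p = 0.0028 from edgeR). The ranges overlapped, and it was lower in UN in 6 of 7 mice and equal in 1. Hoxc10 had 1.12 to 8.98 CPM (median 1.73) in UN and 0 to 1.15 CPM (median 0.652) in BB, a log2 fold change of 2.55 (SE 0.78, adjusted p = 0.031 from edgeR), and was higher in UN in 7 of 7 mice. The log2 fold changes were 2.82 for Hoxc6 (SE 0.80, adjusted p = 0.020 from edgeR), 2.51 for Hoxc8 (SE 0.94, adjusted p = 0.074 from edgeR), 1.99 for Hoxa3 (SE 0.74, adjusted p = 0.071 from edgeR) and -2.38 for Hoxd11 (SE 0.83, adjusted p = 0.055 from edgeR). Hoxc6, Hoxc8 and Hoxa3 were each higher in UN in 5 of 7 mice and lower in 2, and Hoxd11 was lower in 7 of 7. When UN and BB libraries were blocked by mouse (7 mice with both), 0 members were higher and 2 lower (edgeR). Hoxd13 was called there (-5.33, adjusted p = 0.0168 from edgeR), as was Hoxd11, and Hoxa3 (1.33, adjusted p = 0.259), Hoxc6 (2.46, adjusted p = 0.199), Hoxc8 (2.1, adjusted p = 0.417) and Hoxc10 (1.95, adjusted p = 0.242) were not. Within the first range of library codes (all mice but BBN 8, BBN 9 and BBN 10) the counts were also 0 and 2.

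The Hoxc level of UN varied between libraries beside the adipocyte and urothelial sums. UN 2, UN 6 and UN 9 had Hoxc sums of 44.0, 51.1 and 37.2 CPM, adipocyte sums of 21314, 10468 and 15412 CPM and urothelial sums of 25.0, 746 and 1068 CPM. UN 1, UN 3, UN 4 and UN 7 had Hoxc sums of 5.70, 7.35, 13.7 and 8.0 CPM, adipocyte sums of 7578, 6156, 9641 and 3557 CPM and urothelial sums of 4504, 6168, 3599 and 4602 CPM. Without UN 6 or without UN 9, 2 members were higher than in BB, against 4 with all libraries. Without UN 1, UN 2, UN 4 or UN 9 alone, 1 member was lower than in BB, and without UN 3, 4 were. Adipocyte markers were higher in UN than in BB for 5 of 5 genes and endothelial markers for 3 of 3, and smooth muscle markers were lower for 3 of 7 and skeletal muscle markers for 3 of 5. Their part in these results was not tested. Without UN 6, BB 1, BB 3 and BB 4, the libraries of these groups with an RNA integrity number under 5, 6 members were higher (Hoxa5 and Hoxc9 besides the 4) and 2 lower, and limma-trend called the same 6 and 2.

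In UT against BB, 28 members were tested, and 0 were higher and 5 lower, against 5.88% higher and 12.5% lower over all genes. The lower members were Hoxa10, Hoxa11, Hoxa13, Hoxd11 and Hoxd13. No member was called higher by edgeR, DESeq2 or limma-trend, and an unadjusted p under 0.05 in edgeR was found for 1 higher and 6 lower members. Hoxd13 had 0 to 0.308 CPM (median 0) in UT, a log2 fold change of -7.05 (SE 0.99, adjusted p = 9.7e-05 from edgeR), which against many libraries at 0 depends on the prior count and is no bound. It was lower in UT in 9 of 10 mice and equal in 1. Hoxd11 had 0.00299 to 2.41 CPM (median 0.271) in UT and 0.947 to 5.12 CPM (median 2.71) in BB, a log2 fold change of -3.39 (SE 0.70, adjusted p = 0.0038 from edgeR), and was lower in 10 of 10 mice. The log2 fold changes were -2.18 for Hoxa13 (SE 0.70, adjusted p = 0.029 from edgeR), -1.34 for Hoxa10 (SE 0.48, adjusted p = 0.051 from edgeR) and -1.24 for Hoxa11 (SE 0.51, adjusted p = 0.090 from edgeR). Hoxa13 was lower in UT in 9 of 10 mice. Hoxa10 and Hoxa11 were each lower in 6 mice and higher in 4. With the mouse as a block 4 members were lower and the call of Hoxa10 was lost (-1.05, adjusted p = 0.141 from edgeR). In the 3 mice of the second range of library codes (BBN 8, BBN 9 and BBN 10), edgeR called 0 members in either direction. That fit called 17 of all 16470 genes. An unadjusted p under 0.05 was found there for 8 members (6 higher and 2 lower). The log2 fold changes were -4.73 for Hoxd13 (adjusted p = 0.198 from edgeR) and 0.36 for Hoxa10 (adjusted p = 0.864 from edgeR). UT 8, UT 9 and UT 10 had 12.6, 17.2 and 1.98 CPM of Hoxa10 there, and BB 8, BB 9 and BB 10 had 8.83, 12.4 and 5.48 CPM. Without the libraries with an RNA integrity number under 5, 4 members were higher (Hoxc6, Hoxc8, Hoxc9 and Hoxc10) and 4 lower. Smooth muscle markers were lower in UT than in BB for 6 of 7 genes and skeletal muscle markers for 5 of 5, and adipocyte markers were higher for 5 of 5, immune markers for 4 of 5 and kidney tubule markers, at 2238 CPM in UT 4, for 3 of 5 tested. Their part in these results was not tested. Since UN and UT were set against the same BB libraries, their results are not independent.

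The next comparisons asked how Hox genes differed in the ureter after BBN. UT and UN were compared with U in 1 fit, so the comparisons share the 6 U libraries. In UN, 27 members were tested, and 1 was higher than in U (Hoxb7) and 0 were lower, against 12.5% higher and 1.21% lower over 15658 genes. An unadjusted p under 0.05 was found for 2 members, both higher, and DESeq2 and limma-trend also called Hoxb7 higher and 0 members lower. Hoxb7, whose promoter is used to drive genes in the ureteric bud, had 4.40 to 7.36 CPM (median 5.35) in U and 3.66 to 28.4 CPM (median 16.4) in UN, a log2 fold change of 1.32 (SE 0.41, adjusted p = 0.034 from edgeR). The ranges overlapped. Hoxa9 was the only member whose ranges did not overlap between UN and U. It had 7.28 to 21.9 CPM (median 15.9) in UN, below 23.3 to 35.2 CPM (median 26.0) in U. It was not called (log2 fold change -0.94, SE 0.46, adjusted p = 0.18 from edgeR). The share of all genes with such ranges was not computed. With the mouse as a random effect Hoxb7 was not called and Hoxa9 was called lower. Within the first range of library codes 2 members were higher (Hoxb6 and Hoxb7) and 2 lower (Hoxa7 and Hoxa9). Immune markers were higher in UN than in U for 2 of 5 genes, intestinal markers for 1 of 2 tested and female reproductive tract markers for 1 of 3 tested, and of 9 urothelial markers 1 was higher and 1 lower. Their part was not tested.

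Of 27 members tested in UT, 6 were higher than in U (Hoxb3, Hoxb6, Hoxb7, Hoxb9, Hoxd4 and Hoxd9) and 12 lower (7 of the Hoxa and 5 of the Hoxc cluster), against 18.7% higher and 12.3% lower over all genes. The median log2 fold change was -1.48 in Hoxa (7 of 8 lower), 0.99 in Hoxb (4 of 8 higher), -1.60 in Hoxc (5 of 6 lower), 1.02 in Hoxd (2 of 5 higher) and 0.11 over all genes. Among the tested members no Hoxa or Hoxc gene was called higher and no Hoxb or Hoxd gene lower. Hoxd13, at 0 to 1.04 CPM in U and 0 to 0.308 CPM in UT, did not pass the filter, and edgeR called it lower with no filter (-3.23, adjusted p = 0.0174) and in a fit of all 37 libraries (-3.20, adjusted p = 0.00803). DESeq2 called 5 higher and 13 lower, and limma-trend and the mouse as a random effect each called 3 higher (Hoxb6, Hoxb7 and Hoxb9) and 13 lower.

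Hoxb7 had 11.8 to 62.0 CPM (median 34.8) in UT, and all UT libraries lay above all U libraries (log2 fold change 2.25, SE 0.40, adjusted p = 0.00021 from edgeR). Hoxb9, which patterns the thorax, had 4.04 to 59.2 CPM (median 15.2) in UT and 3.04 to 6.12 CPM in U, ranges that overlapped (2.1, SE 0.61, adjusted p = 0.0078 from edgeR). Hoxb6 had 5.14 to 30.3 CPM (median 11.2) in UT and 1.98 to 4.04 CPM (median 3.31) in U, ranges that did not overlap (1.93, SE 0.47, adjusted p = 0.0023 from edgeR). The smaller changes were 1.07 for Hoxb3 (adjusted p = 0.058 from edgeR), 1.06 for Hoxd9 (adjusted p = 0.014 from edgeR) and 1.02 for Hoxd4 (adjusted p = 0.046 from edgeR).

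Among the lower members, Hoxa9, a gene known from blood progenitors, had 1.65 to 24.0 CPM (median 8.15) in UT and 23.3 to 35.2 CPM (median 26.0) in U, a log2 fold change of -1.80 (SE 0.41, adjusted p = 0.0014 from edgeR). Hoxc5 had 0.103 to 3.75 CPM (median 1.19) in UT and 3.31 to 9.96 CPM (median 5.88) in U, a log2 fold change of -2.15 (SE 0.59, adjusted p = 0.0054 from edgeR). Both pairs of ranges overlapped at their ends. The log2 fold changes were -2.0 for Hoxc8 (SE 0.65, adjusted p = 0.016 from edgeR), -2.0 for Hoxa13 (SE 0.70, adjusted p = 0.023 from edgeR) and -1.80 for Hoxa4 (SE 0.64, adjusted p = 0.027 from edgeR). Hoxa5, Hoxa7, Hoxa10, Hoxa11, Hoxc6, Hoxc9 and Hoxc10 were also lower. The adipocyte sum was 33.1 to 13420 CPM in UT against 16484 to 24133 in U, and 5 of 5 adipocyte markers were lower. Smooth muscle markers were lower for 5 of 7 genes and urothelial markers for 4 of 9, with 2 higher, and immune markers were higher for 4 of 5 and kidney tubule markers for 4 of 4 tested, with a kidney tubule sum of 2238 CPM in UT 4 and at most 10.8 CPM in the other UT libraries. Their part in the Hox levels was not tested. In UT 9, with the highest adipocyte sum of UT, the Hoxc sum was 29.5 CPM and the Hoxb sum 30.6 CPM, the highest and the lowest of UT. In UT 4, the library with the high kidney tubule sum and an adipocyte sum of 82.6 CPM, the Hoxa sum was 73.1 CPM, the highest of UT, and the Hoxc sum 14.2 CPM, while UT 3, with an adipocyte sum of 8348 CPM, had a Hoxc sum of 11.6 CPM.

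**Figure D4:**
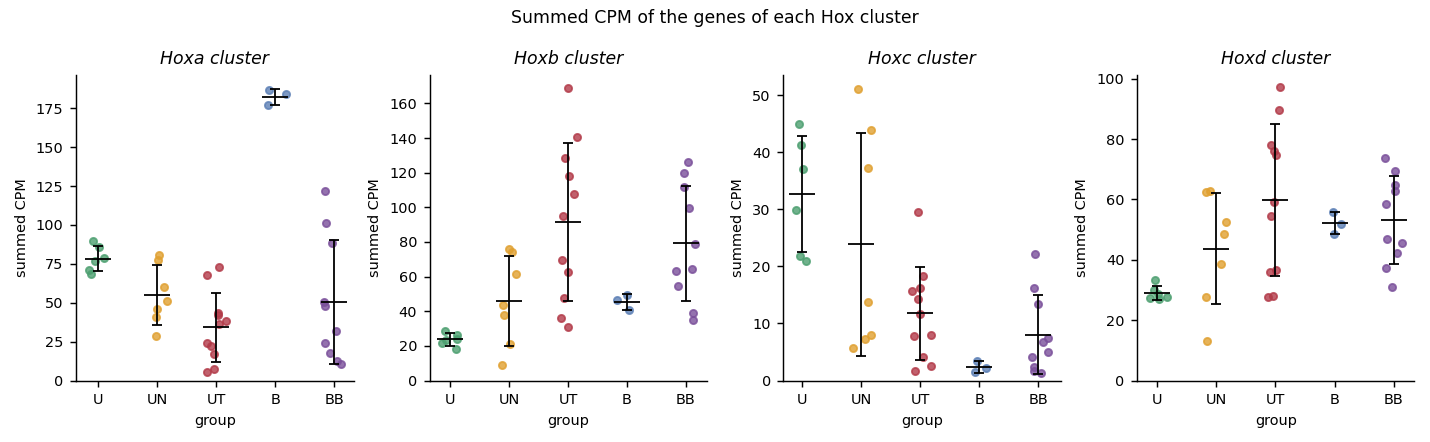
Summed CPM of each Hox cluster in each library (dots) by group, with mean ± SD as bars. The Hoxc sum was 20.9 to 45.0 CPM in U, 1.65 to 29.5 in UT and 1.47 to 3.48 in B, and the Hoxb sum was 18.3 to 28.9 in U and 30.6 to 169 in UT.

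UT was then compared with UN. Of 27 members tested, 0 were higher and 1 was lower, Hoxa5, against 1.32% higher and 4.2% lower over all genes. An unadjusted p under 0.05 was found for 12 members, 3 higher and 9 lower, and DESeq2 called 0 higher and 5 lower and limma-trend 0 in either direction. Over all 15658 genes DESeq2 called 1391 and limma-trend 55. Hoxa5 had 0.595 to 7.05 CPM (median 1.79) in UT and 2.22 to 10.7 CPM (median 8.83) in UN, ranges that overlapped (log2 fold change -1.48, SE 0.47, adjusted p = 0.082 from edgeR). Blocked by mouse, edgeR called 0 members and 0 of all 14869 genes tested, and no member had a p under 0.05 before adjustment. Without the libraries of RNA integrity number under 5, edgeR called 0 members and 3 of all 15735 genes. In that fit 7 members had a p under 0.05 before adjustment (edgeR). Smooth muscle markers were lower in UT for 4 of 7 genes and erythroid markers for 3 of 3, and 0 of 5 adipocyte markers were called (edgeR). Their part was not tested. Without UN 7 or without UT 9, 7 members were lower, without UN 3, UN 1 or UT 7 alone 6, 4 and 2 were, and 0 without UT 2, UT 5R, UT 5L, UT 10, UN 2, UN 4, UN 6 or UN 9.

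In the bladder, BB was compared with B. Of 29 members tested, 3 were higher in BB (Hoxb6, Hoxb7 and Hoxb9) and 1 lower (Hoxa13), against 7.61% higher and 5.74% lower over 18050 genes. The median log2 fold change was -1.44 in Hoxa, 0.87 in Hoxb, 2.48 in Hoxc, 0.46 in Hoxd and 0.25 over all genes. EdgeR called no Hoxc gene, DESeq2 called Hoxc4 higher (3.31, adjusted p = 0.029) and Hoxc8 higher (3.12, adjusted p = 0.084), and an edgeR fit of all 37 libraries called Hoxc4 and Hoxc5 higher. Limma-trend called none, with 0.32 to 1.76, and without the bladders of low RNA integrity only Hoxc4 and Hoxc5 of the cluster passed the filter on low counts. Hoxb9 had 0.316 to 45.8 CPM (median 15.7) in BB and 0.418, 1.93 and 0.903 CPM in B, a log2 fold change of 4.24 (SE 1.11, adjusted p = 0.025 from edgeR). The ranges overlapped, since BB 1 had 0.316 CPM, and BB 8, BB 9 and BB 10 of the second range of library codes had 42.3, 35.9 and 45.8 CPM. Hoxb7 had 12.4 to 34.5 CPM (median 25.3) in BB and 11.2 to 12.9 CPM in B (1.38, SE 0.45, adjusted p = 0.071 from edgeR). The changes were 2.25 for Hoxb6 (SE 0.75, adjusted p = 0.076 from edgeR) and -2.02 for Hoxa13 (SE 0.72, adjusted p = 0.098 from edgeR). Hoxa7, Hoxa9, Hoxa10 and Hoxa11 were not called, although every BB library lay below every B library, as for Hoxa13. Hoxa10 had 1.92 to 66.3 CPM (median 15.5) in BB and 75.4, 79.1 and 83.6 CPM in B (log2 fold change -1.49, SE 0.71, adjusted p = 0.18 from edgeR). The ranges of Hoxb8, Hoxc11 and Hoxd4 did not overlap either and were lower in BB. The share of all genes with such ranges was not computed, so these ranges are given as values only. Limma-trend called 4 members lower (Hoxa9, Hoxa10, Hoxa11 and Hoxa13), and the fit of all 37 libraries called 5, these and Hoxb8. Within the first range Hoxb7 and Hoxb9 were higher and 0 members lower (edgeR). Without B 1 or without B 3, 0 members were called higher, and without B 2, 1 was. With single libraries left out, Hoxa13 was called in 2 of 13 fits, without BB 3 and without BB 6, and in the latter 4 members were lower. Without BB 1, BB 3 and BB 4, the bladders with an RNA integrity number under 5, 3 members were higher and 2 lower (Hoxa13 and Hoxb8). Urothelial markers were lower in BB for 5 of 9 genes and fibroblast markers for 2 of 5, and their part was not tested.

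**Figure D5:**
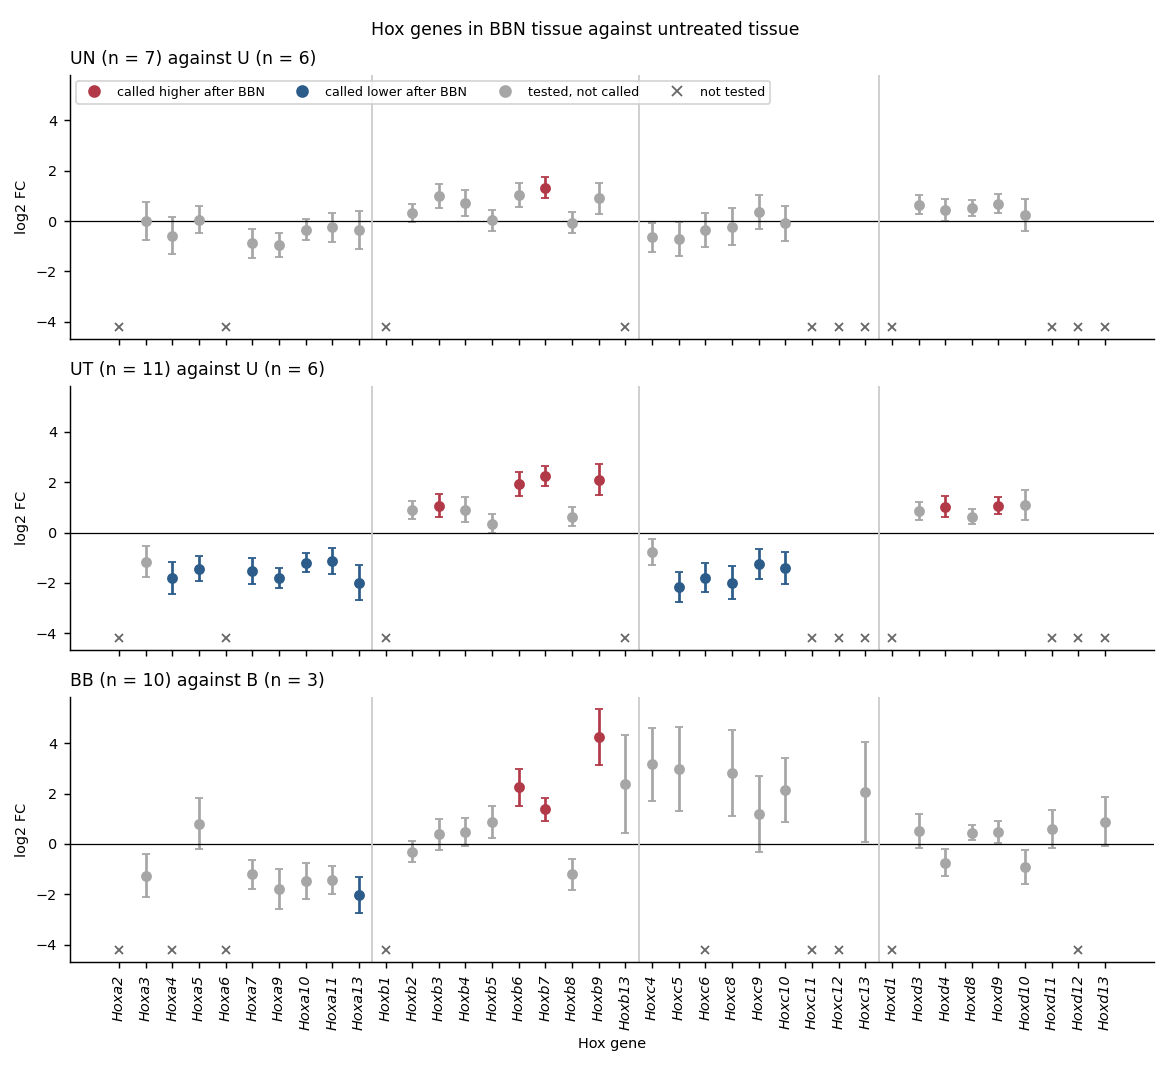
Log2 fold change ± SE of UN against U, UT against U and BB against B for the Hox genes, by cluster. Hoxb6, Hoxb7 and Hoxb9 were called higher in UT and in BB, and Hoxa13 lower in both.

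The difference of the BBN contrast between ureter and bladder, (UN minus U) minus (BB minus B), was tested as an interaction term. Of 33 members tested, 0 were higher and 0 lower, against 1.51% and 0.548% over 18786 genes. An unadjusted p under 0.05 was found for 3 members, all negative: Hoxb9 (-3.34, SE 1.17, adjusted p = 0.20 from edgeR), Hoxc4 (-3.85, SE 1.42, adjusted p = 0.24 from edgeR) and Hoxc5 (-3.77, SE 1.60, adjusted p = 0.34 from edgeR). DESeq2 called 2 lower (Hoxb9 and Hoxc4), edgeR without the libraries of RNA integrity number under 5 called 1 lower (Hoxb9), and limma-trend 0 in either direction.

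Partners and regulators of Hox genes were counted from fixed lists, and the shares of all genes given above serve as their background. Of 9 TALE cofactors, the Pbx, Meis and Pknox proteins that bind DNA with Hox factors, 0 were higher and 1 lower in U than in B (Meis3, log2 fold change -1.41). In UT against U, Pbx3 was higher (1.43) and Meis1 lower (-1.32), and in BB against B Meis1 and Meis3 were lower. Of 27 chromatin and retinoic acid regulators of Hox transcription, 22 were tested in U against B, and 0 were higher and 1 lower (Rarg, a retinoic acid receptor, -1.16). In UT against U 5 of 23 were higher (Ezh2, Rara, Rarb, Rarg and Cyp26a1) and 0 lower, near the 18.7% of all genes that were higher. Of 11 noncoding RNAs of the clusters, 6 were tested in U against B. Hotairm1 of the Hoxa cluster was higher (1.86), and Hotair of the Hoxc cluster (-3.92), Hoxa11os (-1.58) and Hoxd3os1 (-1.20) were lower. Hotair lies between Hoxc11 and Hoxc12, and its difference had the opposite sign to those of Hoxc4 to Hoxc10. Of 18 neighbours of the clusters, 12 were tested, and Hibadh (2.02) and Snx10 (1.62) beside the Hoxa cluster were higher in U and 0 lower. In UN against BB edgeR called 0 higher and 0 lower of 9 TALE cofactors, 1 and 1 of 23 regulators, 0 and 1 of 5 noncoding RNAs and 2 and 0 of 12 neighbours tested, against 8.29% and 7.44% of all genes. In UT against BB the counts of the same lists were 0 and 2 of 9 (Meis1 and Meis2), 0 and 0 of 23, 0 and 3 of 5 (Hotairm1, Hoxa11os and Hoxd3os1), and 1 and 0 of 12, against 5.88% and 12.5%. In UN against U they were 0 and 0 of 8, 2 and 0 of 23 (Rarb and Cyp26a1, an enzyme that degrades retinoic acid), 1 and 0 of 5 (Hoxd3os1), and 0 and 0 of 12, against 12.5% and 1.21%. In UT against UN 1 member of all 4 lists was called, Hotairm1, as lower. In UT against U 0 of 5 noncoding RNAs were called, and of 12 neighbours 2 were higher and 2 lower. In BB against B 1 regulator of 23 was higher (Rarb) and 1 lower (Cbx7), 0 of 7 noncoding RNAs were called, and of 13 neighbours 2 were higher and 1 lower, against 7.61% and 5.74%. In the interaction 0 members of the 4 lists were called.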

How the data were processed

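For WTS, total RNA of ureter and bladder of the mice was reverse transcribed and amplified (SMARTerHT and Nextera XT kits, per the labels) and sequenced. The authors mapped reads to the genome and deposited an estimated count for each gene symbol without normalization, and 21.1% of the nonzero values were fractional. Per the labels, the build was GRCm38/mm10, and the submitters' processing notes name TopHat2 2.1.1 and Cuffdiff 2.2.1 without their role. A strand setting is not given in the sources used here. The unfiltered table was read by sample name, and 0 columns had no sample.

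Values were rounded to whole numbers and tested over all genes by the quasi-likelihood method of edgeR 4.0.16 (R 4.3.3), after TMM scaling and filterByExpr and with Benjamini-Hochberg adjustment. Genes with FDR under 0.1 that changed at least 2-fold were called. U and B, the 28 libraries of BBN mice, the 24 ureter libraries and the 13 bladder libraries were fitted separately. DESeq2 1.42.0 and limma 3.58.1 were alternatives, besides RLE scaling, no filter on low counts, a fit of all 37 libraries, the mouse as a block or random effect, libraries without low RNA integrity, single libraries left out and ranges of library codes. The ranges were chosen after seeing the data. CPM and figures were computed in Python 3.11.15. A fold against a group at 0 used a floor of 3 counts over the group. The procedure was tested on simulated data. The simulated libraries were independent, with no shared effect of a mouse. They do not show how the p-values hold for libraries of the same mouse.

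Same-numbered libraries of one treatment come from the same mouse, so the pairing comes from the animal. Deviations of such libraries from their group's mean correlated with a median of 0.0119 for U and B (other pairs -0.0499), -0.178 for UN and BB (0.108), 0.137 for UT and BB (-0.00877) and 0.00573 for UT and UN (-0.0083). No library was a copy of another (lowest chi-square per degree of freedom within a group 7.37). The libraries of a group come from separate mice, except both sides of 3 mice in U and of mouse 5 in UT.

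TMM scaling shifted fold changes from plain CPM ratios by a median of 0.38 (U against B), 0.37 (BB against B), -0.35 (UT against BB), -0.27 (UT against U) and -0.23 (UT against UN) on the log2 scale, and 0 members called had the opposite direction in mean CPM.

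The members, gene lists and comparisons were chosen with earlier results of these data known. Named were, in U against B, the called member with the largest fold change in each cluster and direction and the paralogs 13, and in the other comparisons up to 5 called members in each direction. Members named beside these, such as Hoxa5, Hoxa10, Hoxc10 and Hoxd12, were chosen after their values were seen. Values of 1 member are not reported here. Sequences are from GENCODE vM21 and RefSeq.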

Additional observations from a re-analysis of the deposited data

Results flagged for a closer look

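In 60 groups of libraries, the named members in each group of 4 to 10 libraries, the extreme library was set against the rest by Dixon's test on log2(CPM + 1), and 5 stood apart. Chance gives about 1 in 20 only for normal values of independent libraries. Several groups had libraries tied at 0 and U held both sides of each mouse, so the rate by chance is not known here. UN 7 was apart for Hoxb13 (0.742, the nearest other library at 0.126) and for Hoxd13 (1.349, the nearest at 0.342), both high in a ureter group otherwise at or near 0. UN 6, a library with an RNA integrity number under 5, was apart for Hoxd11 (1.815, the nearest at 0.809). BB 10 was apart for Hoxc5 (4.006, the nearest at 1.188). U 1R, also under 5 in RNA integrity number, was apart for Hoxc13 (0.4306, the nearest at 0.0891). The 11 UT and the 3 B libraries were not compared in this way.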

How the results depend on the processing

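With the other settings, single libraries left out not counted, the fold changes of the called members singled out by the naming rule changed as follows: 226 values kept their direction and side of the threshold, 39 kept their direction but not the call, and 1 reversed (Hoxa10 in UT against BB, 0.36 in the second range of library codes). Over all settings, leaving out single libraries included, the fold change took both signs in 1 of 54 member comparisons that were called and in 56 of 175 that were not, such as Hoxa9 (-1.37 to 2.12), Hoxa7 (-0.82 to 2.15) and Hoxb9 (-1.14 to 1.03) in UT against BB and Hoxb13 (-0.55 to 2.86) and Hoxa5 (-0.40 to 1.21) in BB against B. The numbers called, higher and lower, were as follows. U against B: 5 and 5 in a fit of all 37 libraries. UN against BB: 7 higher in all 37, 6 with limma-trend and without low RNA integrity, 0 higher under the replicate block and in the first range, and 4 lower with no filter on low counts. UT against BB: 1 higher and 10 lower with no filter, 4 higher in all 37, 2 lower with limma-trend and 0 lower in the second range. With no filter 1386 of all 24037 genes were higher and 6164 lower, and in the second range 1 of 16470 was higher and 16 lower. UN against U: 0 and 1 under a random effect of mouse and 2 and 2 in the first range. UT against U: 3 higher with limma-trend and with the random effect. UT against UN: 5 lower with DESeq2, and 0 lower with limma-trend, the random effect, all 37, the block, the first range and without low RNA integrity. Over all genes the settings with 0 lower called 55, 2, 492, 0, 26 and 3 genes, in that order. BB against B: 5 and 3 with DESeq2, 5 and 5 in all 37, 1 and 0 with no filter, 0 lower with RLE scaling and in the first range, and 4 lower with limma-trend. The interaction: 2 lower with DESeq2 and 1 lower without the libraries of RNA integrity number under 5. The mouse block, which pairs libraries of the same animal, also ended the call of Hoxa10 in UT against BB (4 lower) and changed no other call. The cause of these changes was not tested.

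With single libraries left out, the numbers were 9 to 9 higher and 9 to 11 lower in U against B, 2 to 6 and 1 to 4 in UN against BB, 0 to 1 and 3 to 5 in UT against BB, 1 to 3 and 0 to 0 in UN against U, 4 to 6 and 10 to 13 in UT against U, 0 to 2 and 0 to 7 in UT against UN, 0 to 3 and 0 to 4 in BB against B, and 0 to 0 in both directions in the interaction. Calls of single members were lost as follows. In UN against BB, Hoxc8 was called in 21 of 28 such fits (not without UN 2, UN 6, UN 9, BB 5, BB 6, BB 9 or BB 10), Hoxa3 in 24 (not without UN 6, UN 9, BB 8 or BB 10) and Hoxd11 in 24 (not without UN 1, UN 2, UN 4 or UN 9). In UT against BB, Hoxa11 was called in 16 of 28 and Hoxa10 in 27 (not without BB 6). In UT against U, over 32 other settings Hoxc9 kept its call in 18, Hoxd4 in 20 (not with DESeq2, RLE scaling, limma-trend or the random effect), Hoxa11 in 23 and Hoxc10 in 30 (not without U 2R or U 2L), Hoxb3 was not called without UT 1, UT 5R or U 2L, nor Hoxd9 without UT 5L or UT 10. In U against B, Hoxd3 was not called without U 2R. In BB against B, Hoxb6 was not called without any one B library or BB 9, Hoxb7 without any one B library and Hoxb9 without B 1 or B 3. In UT against BB 3 were lower without BB 6 and 1 was higher without BB 1, BB 4 or UT 5R. In UN against U 3 were higher without UN 2 and 2 without UN 9. In UT against UN 2 were higher without UN 3 and 1 without UN 7, UT 8 or UT 9. Members with few counts, such as Hoxd12, were left out by the filter on low counts. With no filter, 11 and 13 members were called in U against B, Hoxd12 among the lower.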

Other observations

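Several members varied widely between the bladders of BBN mice. BB 6 had 39.8 CPM of Hoxb13, and the other BB libraries 7.26 CPM or less. The library name of BB 6 carries a T where those of the other bladders carry an N, and the title gives only bladder. BB 6 also had the highest Hoxa10 of BB, 66.3 CPM, against 75.4 to 83.6 CPM in B. Hoxc13 was 2.21, 5.62 and 1.28 CPM in BB 1, BB 3 and BB 4, the bladders with an RNA integrity number under 5, and at most 0.906 CPM in B. Hoxd13 was 28.9 CPM in BB 2, 16.9 in BB 1 and 14.2 in BB 5, and 0 in BB 4. By Dixon's test no BB library stood apart for Hoxb13, Hoxa10, Hoxc13 or Hoxd13, and these values have no other test.

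In the ureter, UT 4 had 15.2 CPM of Hoxd10, where the next highest UT library had 8.53 CPM. Its sum of 7 kidney tubule markers was 2238 CPM, against at most 44.1 CPM in any other library. The part of kidney RNA in its Hox levels was not tested.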
